A study of Mus musculus with 40 samples.

Results

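The cholesterol synthesis genes Hmgcs1, Idi1, Fdps, Fdft1, Sqle, Lss and Cyp51 were examined in the cerebral cortex (cortex) and the cerebellum of young wild-type, aged wild-type and aged Ttpa-/- mice. The members were the probes whose gene name in the array files is one of these 7 symbols, which gave 8 of 55681 probes and 7 of 36406 gene names. All 7 are enzymes of synthesis, and no uptake receptor is among them. RNA was measured on 40 Agilent 1-colour arrays, 4 in each of 10 groups, and every animal had the C57Bl/6 background. The same 5 groups were sampled in each region. Young mice (2 months) were wild-type and ate the normal diet. Aged mice (29 months) were either wild-type, fed the normal or the α-tocopherol deficient diet, or Ttpa-/-, fed the deficient or the supplemented diet. The normal diet held 36 mg and the supplemented diet 600 mg of α-tocopherol per kg. The product of Ttpa, α-tocopherol transfer protein, retains vitamin E in the body, so that the study used Ttpa-/- mice as a model of chronic oxidative stress. The deletion is in the whole animal, and there was neither a Ttpa-/- group on the normal diet nor a young Ttpa-/- group.

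Cholesterol is made from acetyl-CoA through the mevalonate pathway. Hmgcs1 is the cytosolic HMG-CoA synthase, near the head of the pathway. Idi1 isomerises isopentenyl diphosphate, and Fdps joins isoprene units into farnesyl diphosphate, from which prenylated proteins, dolichol and ubiquinone are also made. Fdft1, squalene synthase, takes the first step that is committed to sterols. Sqle oxidises squalene to its epoxide, Lss closes the ring to lanosterol, and Cyp51 removes the 14α-methyl group of lanosterol. Cholesterol does not pass the blood-brain barrier in quantity, so the brain makes its own, in oligodendrocytes during myelination and mainly in astrocytes in the adult. SREBP-2, the product of Srebf2, is the main activator of these genes when sterols are low.

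Sequence of the gene starts was available for 4 of the 7 genes, Hmgcs1, Idi1, Lss and Cyp51, as RefSeq promoters on GRCm38.p6. The motifs searched, on both strands of windows from 250 bases before to 50 after the start site, were TCACNCCAC, a core form of the sterol regulatory element that SREBP binds, the CCAAT box bound by NF-Y, and the GC box GGGCGG bound by Sp1. The sterol element was matched in 1 of the 4 promoters, that of Hmgcs1, and in 1.24% of 32851 promoters. CCAAT was matched in all 4 against 37.4% of all promoters, and GGGCGG in all 4 against 35.7%. The 250 bases before the start are shown for Hmgcs1, whose promoter held the sterol element 137 bases before the start site, and for Lss, which fell in Ttpa-/- mice. Capitals mark the motifs, so that ATTGG and CCGCCC are the CCAAT and GC boxes on the other strand. Both windows lie on the plus strand, that of Hmgcs1 at chr13:119690101-119690350 and that of Lss at chr10:76531355-76531604.
Hmgcs1: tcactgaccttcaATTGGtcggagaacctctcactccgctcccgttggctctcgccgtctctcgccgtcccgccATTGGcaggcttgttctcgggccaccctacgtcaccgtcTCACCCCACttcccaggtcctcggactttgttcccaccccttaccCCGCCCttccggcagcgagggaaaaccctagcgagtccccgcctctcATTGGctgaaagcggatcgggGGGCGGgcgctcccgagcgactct
Lss: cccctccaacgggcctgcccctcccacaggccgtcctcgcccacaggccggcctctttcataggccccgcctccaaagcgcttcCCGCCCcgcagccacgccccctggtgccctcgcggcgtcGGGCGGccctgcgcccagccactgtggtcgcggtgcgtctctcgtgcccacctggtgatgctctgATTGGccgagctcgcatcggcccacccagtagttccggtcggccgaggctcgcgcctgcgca

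Each gene was read by 1 probe of 60 bases, except Fdft1, which had 2. The positions were those of the array files on mm9, and no annotation of that build was used to place them in exons or introns. The probes lay at chr13:8891524-8891583 on the plus strand for Idi1, chr3:88897549-88897608 on the minus strand for Fdps, chr15:59162688-59162747 on the plus strand for Sqle, chr10:76015992-76016051 on the plus strand for Lss and chr5:4081471-4081530 on the minus strand for Cyp51. That of Hmgcs1 was placed on the unplaced contig chr13_random:114793-114852. The brighter Fdft1 probe stood for the gene. Its 60 bases had ends 4241 bases apart, at chr14:63765750-63769990 on the minus strand, so that it read a spliced transcript. Its sequence is shown because the largest change in deficient Ttpa-/- against wild-type cerebellum on the normal diet was read by it.
Fdft1 probe: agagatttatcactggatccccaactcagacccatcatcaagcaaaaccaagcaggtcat
The second Fdft1 probe, at chr14:63764562-63764621, was well above background on 29 of 40 arrays and is described beside the results.

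Levels were processed intensities divided by the 75th percentile of their array, on the log2 scale, so that 0 is that percentile. They were not compared between probes. Differences were tested with limma over all probes well above background in a compared group, and a gene passed at a Benjamini-Hochberg adjusted p under 0.05. The 75th percentile ran from 365 to 925 intensity units, and probes well above background made up 51.4% to 61.4%. All 7 representative probes were well above background on every array with a value and none was saturated, and Idi1 had 39 values because its spot on 1 array of cortex of wild-type mice on the deficient diet was non-uniform. The region markers fitted the labels, with 7 of 7 tested cortical genes higher in cortex and 8 of 8 cerebellar genes higher in cerebellum at 2 months. In cerebellum the brighter probe of Ttpa, the deleted gene, was above background on 12 of 12 wild-type and 1 of 8 Ttpa-/- arrays. In cortex it was above background on 1 of 20 arrays, too dim there for a check by detection. Its means in cortex were -4.65, -4.95 and -5.50 in the wild-type groups and -6.88 and -6.68 in the Ttpa-/- groups. Each group lay on 1 of 5 slides of 8 arrays. The aging comparison in cortex, deficient against normal diet in wild-type cerebellum, supplemented against deficient diet in Ttpa-/- cerebellum and supplemented Ttpa-/- against deficient wild-type cortex were within a slide, and in all other comparisons slide and condition cannot be told apart. In tissue RNA, fewer cells of a type and less RNA per cell cannot be told apart either.

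The cholesterol synthesis genes were higher in cortex than in cerebellum in wild-type mice on the normal diet. At 2 months 5 of 7 were higher in cortex, where 32.7% of all tested probes were higher, and at 29 months 7 of 7 were, against 27.9% of all tested probes. The median difference of the 7 genes, cortex minus cerebellum, was 0.87 on the log2 scale at 2 months and 0.996 at 29 months, and that of all tested probes was 0.02 and -0.01. These comparisons were between slides.

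Fdft1, at the branch point to sterols, had levels of 2.65, 2.64, 2.63 and 2.81 in cortex and 1.30, 1.52, 1.58 and 1.48 in cerebellum at 2 months. At 29 months it had levels of 3.07, 3.14, 2.92 and 3.07 in cortex and 1.56, 1.43, 1.57 and 1.44 in cerebellum. No cortical array reached down to a cerebellar one at either age. The difference was 1.21 ± 0.08 (SE, adjusted p = 5.06e-14) at 2 months and 1.55 ± 0.08 (adjusted p = 1.31e-16) at 29 months. The second Fdft1 probe did not show it, with a difference of -0.08 (adjusted p = 0.831) at 29 months, when it was above background on 1 of 4 cortical and 4 of 4 cerebellar arrays.

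Sqle, the squalene epoxidase, had levels of 3.80, 4.00, 3.98 and 3.97 in cortex and 2.91, 3.00, 3.13 and 3.09 in cerebellum at 2 months. At 29 months the levels were 4.24, 4.21, 4.21 and 4.06 in cortex and 2.59, 2.50, 2.58 and 2.54 in cerebellum. The regions moved apart with age, since the cortical arrays lay higher and the cerebellar ones lower than at 2 months, and they did not overlap. The difference was 0.91 ± 0.10 (adjusted p = 4.82e-09) at 2 months and 1.63 ± 0.10 (adjusted p = 7.92e-15) at 29 months, which was the largest of the 7 genes at that age, 3.09-fold.

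Hmgcs1, at the head of the pathway, had levels of 5.25, 5.52, 5.37 and 5.56 in cortex and 3.94, 4.42, 4.64 and 4.62 in cerebellum at 2 months. At 29 months they were 5.63, 5.59, 5.54 and 5.37 in cortex and 4.30, 4.07, 4.22 and 3.94 in cerebellum. The cerebellar values spread more widely than the cortical ones but stayed below all of them. The difference was 1.02 ± 0.17 (adjusted p = 6.36e-06) and 1.40 ± 0.17 (adjusted p = 2.84e-08). Fdps, which makes farnesyl diphosphate, lay at 4.01 to 4.09 in cortex and 2.91 to 3.35 in cerebellum at 2 months, and at 4.24 to 4.43 and 3.22 to 3.38 at 29 months, without overlap. Its differences were 0.87 ± 0.09 (adjusted p = 2.09e-10) and 0.996 ± 0.09 (adjusted p = 1.23e-11).

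The other 3 genes differed less. Cyp51 was higher in cortex by 0.42 ± 0.11 (adjusted p = 0.0015) at 2 months and 0.72 ± 0.11 (adjusted p = 1.25e-06) at 29 months. Lss, the lanosterol synthase, had a difference of 0.23 (95% interval -0.01 to 0.46, adjusted p = 0.0923) at 2 months and was higher in cortex by 0.42 ± 0.12 (adjusted p = 0.00257) at 29 months. Idi1 had levels of 2.49, 2.49, 2.55 and 2.83 in cortex and 2.22, 2.69, 2.74 and 2.62 in cerebellum at 2 months, with a difference of 0.02 (95% interval -0.22 to 0.27, adjusted p = 0.875). At 29 months its levels were 2.90, 2.96, 2.70 and 2.68 in cortex and 2.49, 2.28, 2.24 and 2.17 in cerebellum, which no longer overlapped, and the difference was 0.52 ± 0.12 (adjusted p = 4.57e-04). Of the 7 genes, Idi1 had the smallest estimate in young mice and Lss the smallest in aged mice.

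**Figure D1:**
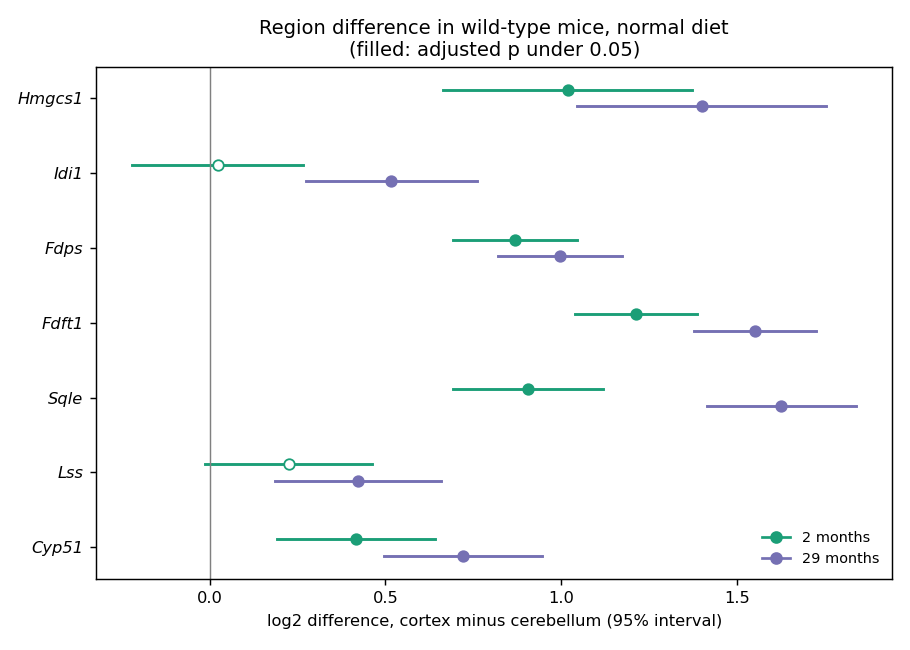
The differences of the 7 genes between cortex and cerebellum on the log2 scale, with 95% intervals from limma, are drawn for wild-type mice on the normal diet at 2 and 29 months (4 arrays in each group), with filled points for genes that passed. All points lie to the right of 0, from 0.02 (Idi1 at 2 months) to 1.63 (Sqle at 29 months).

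Of the 15 other enzymes of the pathway that were listed, all were tested, and 9 were higher and 4 lower in cortex at 2 months, with 11 higher and 3 lower at 29 months. Of all tested probes, 32.7% were higher and 29.8% lower at 2 months, and 27.9% and 28.4% at 29 months. At 29 months Msmo1, the C4-methyl oxidase, was higher by 1.38, Nsdhl, which acts with it, by 1.25, and Acat2, which condenses acetyl-CoA, by 1.16. Lbr (-0.95) and Ebp (-0.51), a sterol reductase and the sterol isomerase, were lower. The 15 enzymes had a median difference of 0.43 at 2 months and 0.72 at 29 months. Another 9 genes were listed as regulators, namely Srebf1, Srebf2, genes of SREBP processing, Mylip and Stard4. Of these 9, 3 were higher and 3 lower in cortex at 29 months. Srebf2 was higher by 1.14 and Insig1, which holds SREBP in the endoplasmic reticulum, by 0.60. Of 9 uptake genes, 1 was higher and 2 lower in cortex at 29 months, Scarb1, the HDL receptor, by 1.09, and Vldlr by -0.79 and Lrp8 by -0.24. Among 9 genes of export, storage and turnover, 3 were higher and 4 lower in cortex at 29 months, with Cyp46a1, the neuronal cholesterol 24-hydroxylase, at 1.94, and Nr1h3, which encodes LXRα at -2.49 and the exporter Abca1 at -0.91. Of 10 fatty acid synthesis genes, 4 were higher and 2 lower, with a median of 0.13.

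Cell type markers also differed by region, where 27.9% of all tested probes were higher and 28.4% lower in cortex at 29 months. Of 10 tested astrocyte markers, 2 were higher and 7 lower in cortex at 29 months, and their summed level, relative to the 75th percentile, was 129 to 146 in cortex and 230 to 290 in cerebellum. Of 12 oligodendrocyte and myelin markers, 1 was higher and 0 were lower, with summed levels of 227 to 386 and 287 to 333. Of 7 neuronal markers, 4 were higher and 1 lower, with summed levels of 481 to 516 and 338 to 378, and of 10 microglial markers 5 were higher and 0 lower (135 to 184 and 113 to 129). Every marker of these lists was above background on at least 1 array of each of these groups, and their part in the difference between the regions was not tested.

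**Figure D2:**
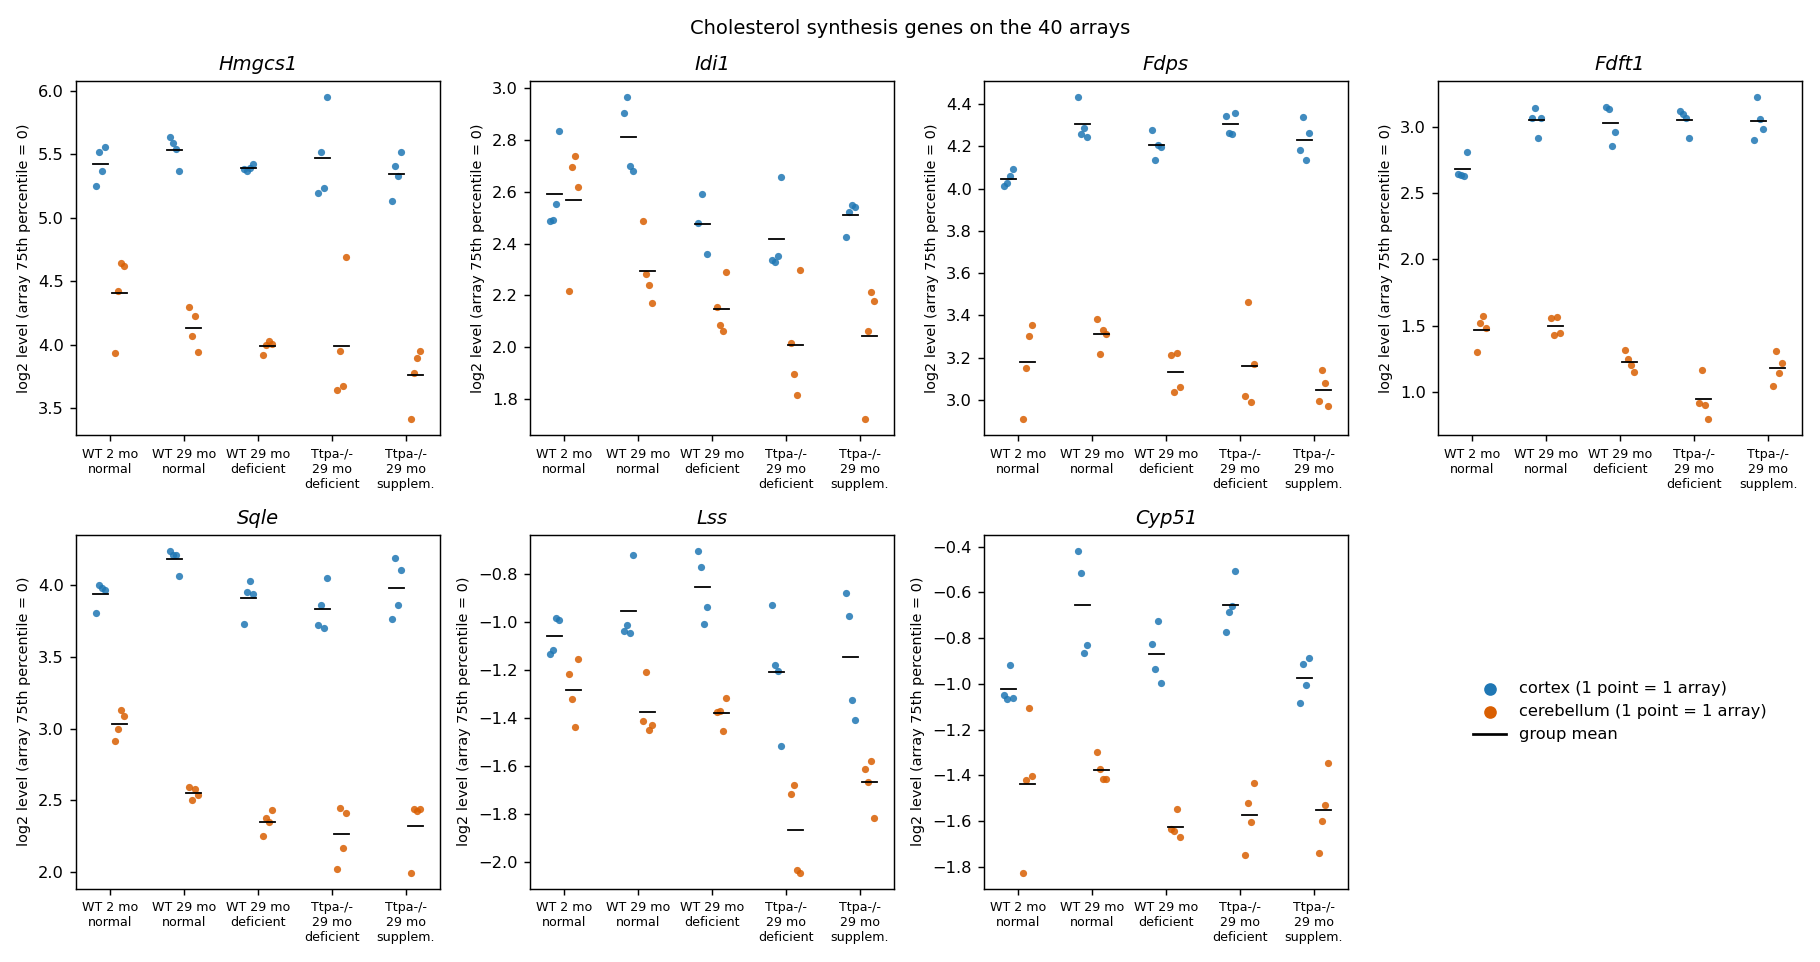
The log2 levels of the 7 genes are drawn for the 40 arrays, with cortex in blue, cerebellum in orange, 1 point for an array (39 for Idi1) and a line at the group mean. The blue points of Hmgcs1, Fdps, Fdft1, Sqle and Cyp51 lie above all orange points of the same gene, while those of Idi1 at 2 months do not, with means of 2.59 in cortex and 2.57 in cerebellum.

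Across all 10 groups, aged wild-type cortex on the normal diet had the highest mean of Hmgcs1 (5.53 ± 0.12, SD, n = 4), Idi1 (2.81 ± 0.14), Fdps (4.31 ± 0.09), Fdft1 (3.05 ± 0.09), Sqle (4.18 ± 0.08) and Cyp51 (-0.66 ± 0.22). For Lss it was the deficient wild-type cortex (-0.86 ± 0.14). The lowest mean was in Ttpa-/- cerebellum for 6 genes, on the supplemented diet for Hmgcs1 (3.76 ± 0.24) and Fdps (3.05 ± 0.08), and on the deficient diet for Idi1 (2.01 ± 0.21), Fdft1 (0.94 ± 0.16), Sqle (2.26 ± 0.20) and Lss (-1.87 ± 0.20). Cyp51 was lowest in the deficient wild-type cerebellum (-1.62 ± 0.05). In the order of the 10 means, most neighbours were not apart: their arrays overlapped in 9 of 9 neighbouring pairs for Idi1, 8 of 9 for Hmgcs1, Lss and Cyp51, 7 of 9 for Fdps and Fdft1 and 6 of 9 for Sqle. Hmgcs1, Fdps, Fdft1, Sqle and Cyp51 had a gap between the lowest cortical and the highest cerebellar group. Fdps and Fdft1 had another between young cortex and the aged cortical groups, Sqle had others on each side of aged wild-type cerebellum on the normal diet, and the gap of Lss set both Ttpa-/- groups of cerebellum apart from the rest.

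Aging was then asked about in wild-type mice on the normal diet. In cortex Fdft1 was up-regulated, 1 of 7 genes where 2.75% of tested probes rose. Its 4 levels at 29 months, from 2.92 to 3.14, lay above the 4 at 2 months, from 2.63 to 2.81, and it rose by 0.37 ± 0.09 (SE), 1.29-fold (adjusted p = 0.00779). The second Fdft1 probe gave -0.08 and was not tested, being above background on 2 of 4 and 1 of 4 arrays, and with the mean of both probes the change was 0.14 (adjusted p = 0.77). All 7 estimates were above 0, with a median of 0.24 against -0.03 over all tested probes. Cyp51 had levels of -1.05, -1.07, -0.92 and -1.06 at 2 months and -0.42, -0.51, -0.86 and -0.83 at 29 months, a change of 0.37 ± 0.11 that missed the threshold (adjusted p = 0.0508). Fdps had a change of 0.26 (adjusted p = 0.0933), Sqle of 0.24 (adjusted p = 0.245), Idi1 of 0.22 (adjusted p = 0.404), Hmgcs1 of 0.11 (adjusted p = 0.858) and Lss of 0.10 (adjusted p = 0.782). Fdft1 kept its call in all 8 fits that left out 1 array of these groups and lost it in a fit of the compared groups alone (adjusted p = 0.0785) and under median scaling (adjusted p = 0.436).

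In cerebellum Sqle was down-regulated with age, where 4.08% of tested probes fell. Its levels at 29 months, 2.50 to 2.59, lay below those at 2 months, 2.91 to 3.13, and it fell by 0.48 ± 0.10, 1.39-fold (adjusted p = 0.00193). This call held in all 8 fits without 1 array and under every alternative for scaling, background and test, the exception being the added threshold of a 1.5-fold change. The median of the 7 genes was -0.09, with 3 estimates above and 4 below 0. Hmgcs1 had a change of -0.27 (adjusted p = 0.393) and Idi1 of -0.27 (adjusted p = 0.156), with overlapping arrays, and Fdps of 0.13 (adjusted p = 0.414). Fdft1, Lss and Cyp51 had changes of 0.03, -0.09 and 0.06.

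The effect of age on Sqle differed between the regions, by 0.72 ± 0.15 (adjusted p = 0.00492), where 0.805% of tested probes had a difference in this direction. Under median scaling the difference was 0.74 and did not pass (adjusted p = 0.131). This test is also that of the change in the region difference from 2 to 29 months. For the other genes the difference of the effects did not pass, from 0.13 (95% interval -0.12 to 0.38) for Fdps to 0.49 (95% interval 0.15 to 0.84, adjusted p = 0.16) for Idi1. All 7 were above 0, with a median of 0.34 against -0.02 over all tested probes.

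**Figure D3:**
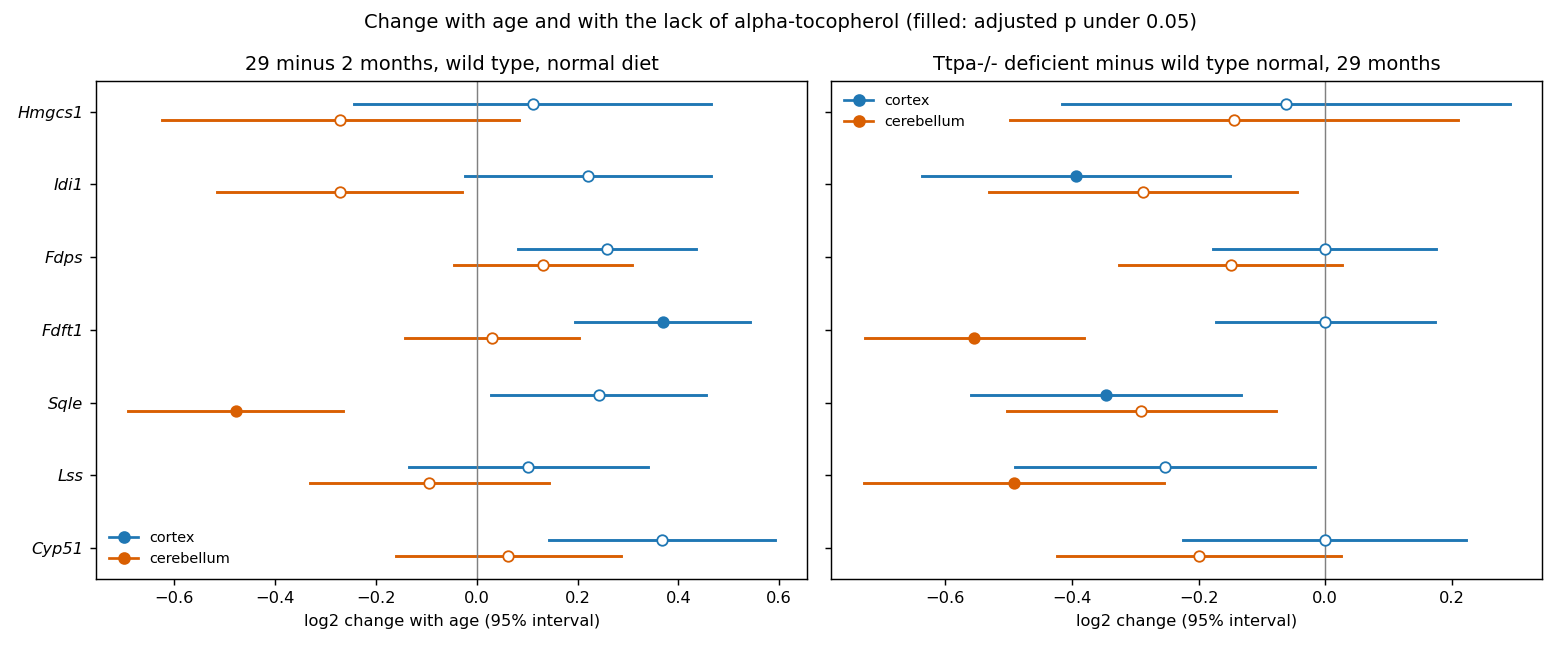
The log2 changes with age in wild-type mice (left) and in deficient Ttpa-/- mice relative to wild type of that age fed the normal diet (right), with 95% intervals from limma, are drawn for cortex in blue and cerebellum in orange, with filled points for genes that passed. With age Sqle lies at 0.24 in cortex and -0.48 in cerebellum, and in Ttpa-/- mice Fdft1 lies at 0.00 in cortex and -0.55 in cerebellum.

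Of the 15 other enzymes, 0 passed with age in cortex (median change 0.15), and in cerebellum 0 rose and Mvd, the mevalonate diphosphate decarboxylase, fell by 0.45 (adjusted p = 0.00524). Of the 9 uptake genes, 2 rose in cortex, among them Npc2, which moves cholesterol out of lysosomes (0.32), and 2 in cerebellum, Apoe (0.56), the main lipoprotein of the brain, and Lipa (0.42), the lysosomal acid lipase. Ch25h, the cholesterol 25-hydroxylase, rose by 1.97 in cortex and 2.58 in cerebellum, and Nr1h3 by 0.53 in cerebellum. Among the regulators Srebf1, the SREBP of fatty acid synthesis, rose by 0.56 in cerebellum, and 0 of 9 passed in cortex. Acss2, which makes acetyl-CoA from acetate, fell by 0.34 in cerebellum, and it alone of 10 fatty acid synthesis genes passed there, with 0 in cortex.

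Other cells moved with age in the same samples. Of 10 microglial markers, 4 rose in cortex and 8 in cerebellum, with summed levels of 86.6 to 94.4 at 2 months and 113 to 129 at 29 months in cerebellum. Of 6 choroid plexus markers tested in cerebellum, 3 fell, among them Ttr, which fell by 7.70, and the summed level was 8.56 to 248 at 2 months and 5.48 to 6.42 at 29 months. In cortex, where 0 of 6 passed, it was 2.54 to 134 and 4.06 to 147. Of 5 blood markers, 3 rose in cerebellum, from a summed level of 3.48 to 8.35 to one of 13.3 to 96.3. Of 8 cerebellar identity genes, 3 fell in cerebellum. Of 12 myelin markers, 0 passed in either region. Of all tested probes, 2.75% rose with age in cortex, and 6.93% rose and 4.08% fell in cerebellum. The part of these cell types in the change of Sqle was not tested.

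Oxidative stress was represented by Ttpa-/- mice on the deficient diet, set against wild-type mice of the same age on the normal diet. In cortex Sqle and Idi1 were down-regulated, 2 of 7 genes where 9.5% of tested probes fell. Sqle had levels of 3.72, 3.86, 3.70 and 4.05 in Ttpa-/- cortex, all below the 4.06 to 4.24 of the wild-type arrays, and fell by 0.35 ± 0.10, 1.27-fold (adjusted p = 0.0192). Idi1 had levels of 2.34, 2.33, 2.35 and 2.66, all below the 2.68 to 2.96 of wild type, and fell by 0.39 ± 0.12, 1.31-fold (adjusted p = 0.0202). In both genes replicate 4 was the Ttpa-/- array nearest to the wild-type range.
The other 5 genes did not pass in cortex. Lss had a change of -0.25 (95% interval -0.49 to -0.02, adjusted p = 0.125) and Hmgcs1 one of -0.06 (95% interval -0.42 to 0.29). Fdps, Fdft1 and Cyp51 had changes of 0.00, with 95% intervals of -0.18 to 0.18, -0.17 to 0.17 and -0.22 to 0.22. All 7 estimates were below 0, if only just for Fdps, Fdft1 and Cyp51. The median of the 7 genes was -0.06 and that of all tested probes -0.02. The calls of Sqle and Idi1 lay near the threshold: Sqle did not pass without wild-type replicate 1 or 2 or Ttpa-/- replicate 1 or 3 (adjusted p 0.0504 to 0.0769), nor Idi1 without wild-type replicate 1 or 2 or Ttpa-/- replicate 1, 2 or 3 (adjusted p 0.0598 to 0.0778). In those fits the changes were -0.34 to -0.30 for Sqle and -0.37 to -0.34 for Idi1. Neither passed in a fit of the compared groups alone (adjusted p = 0.0687 for Sqle and 0.0666 for Idi1) or under median scaling (adjusted p = 0.3 and 0.28).

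In Ttpa-/- cerebellum Fdft1 and Lss were down-regulated, 2 of 7 genes where 6.39% of tested probes fell. Fdft1 had levels of 0.92, 1.16, 0.90 and 0.80, all below the 1.43 to 1.57 of wild type, and fell by 0.55 ± 0.08, 1.47-fold (adjusted p = 5.4e-05). This was the largest change of any of the 7 genes with age, genotype or diet. Lss had levels of -1.72, -1.68, -2.03 and -2.05 against -1.45 to -1.21 in wild type, without overlap, and fell by 0.49 ± 0.12, 1.41-fold (adjusted p = 0.00514). Both calls held in all 8 fits without 1 array. The second Fdft1 probe gave a change of -0.35 (adjusted p = 0.495), the mean of both Fdft1 probes one of -0.45 (adjusted p = 0.0535), and Lss did not pass under median scaling (adjusted p = 0.109) or with the compared groups alone (adjusted p = 0.0592).

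Sqle had levels of 2.02, 2.45, 2.17 and 2.41 in Ttpa-/- cerebellum, below the 2.50 to 2.59 of wild type, with a change of -0.29 ± 0.10 that missed the threshold (adjusted p = 0.0614). It passed without replicate 2 (adjusted p = 0.0298) or replicate 4 (adjusted p = 0.0486) of Ttpa-/- cerebellum, and with same-numbered samples taken as blocks (adjusted p = 0.0236). Without replicate 2 Fdps passed as well (-0.25, adjusted p = 0.0357), and without replicate 4 Idi1 did (-0.38, adjusted p = 0.0416), so that 4 of 7 genes passed in each of those fits. They were 2 of 8 fits that left out 1 array, and the share of all probes that fell in them was not counted. Replicate 4 had the highest Hmgcs1 of its group, 4.69 against 3.64 to 3.95, and Hmgcs1 had a change of -0.14 (95% interval -0.50 to 0.21). Cyp51 had a change of -0.20 (adjusted p = 0.242) without overlap of the arrays, and Idi1 and Fdps changes of -0.29 and -0.15. The share of all tested probes without overlap was not counted. All 7 estimates in cerebellum were below 0, with a median of -0.29 against -0.02 over all tested probes.

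The difference between the regions in the effect of Ttpa-/- with the deficient diet was tested for each gene. It was 0.55 ± 0.12 for Fdft1 (cortex minus cerebellum, adjusted p = 0.00549), and 4.42% of tested probes had a difference in this direction. It did not pass under median scaling (0.63, adjusted p = 0.163) or with the mean of both Fdft1 probes (0.45, adjusted p = 0.212). For Sqle (-0.06, 95% interval -0.36 to 0.25) and Idi1 (-0.11, 95% interval -0.45 to 0.24), which passed only in cortex, and for Lss (0.24, 95% interval -0.10 to 0.57), which passed only in cerebellum, a difference between the regions did not pass.

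Against wild-type mice on the same deficient diet, so that the groups differed in genotype, Lss fell in both regions. In cortex 7.4% of tested probes fell and Lss was the one of 7 genes that did, by 0.35 ± 0.12 (adjusted p = 0.0422), with levels of -0.93, -1.18, -1.21 and -1.52 in Ttpa-/- and -0.70, -0.77, -1.01 and -0.94 in wild-type cortex. The highest Ttpa-/- array overlapped the wild-type arrays, and the call was lost without wild-type replicate 1 or 2 or Ttpa-/- replicate 2, 3 or 4 (adjusted p 0.0683 to 0.143). In cerebellum, where 4.64% of tested probes fell, Lss fell by 0.49 ± 0.12 (adjusted p = 0.00543), from levels of -1.38, -1.37, -1.45 and -1.32 in wild type, without overlap. Fdft1 fell there by 0.28 ± 0.08 (adjusted p = 0.0251), from levels of 1.32, 1.25, 1.20 and 1.15, and replicate 2 of Ttpa-/- overlapped them. Fdft1 did not pass without wild-type replicate 1 or 2 or Ttpa-/- replicate 1, 3 or 4 (adjusted p 0.0529 to 0.0935), while Lss passed in all 8 fits. The second Fdft1 probe gave -0.03 and was not tested, and the mean of both probes gave -0.16 (adjusted p = 0.542). With the compared groups alone neither Fdft1 (adjusted p = 0.218) nor Lss (adjusted p = 0.0821) passed in cerebellum. Under median scaling, which moved the median of all probes by 0.18 in this comparison, the change of Lss was -0.31 (adjusted p = 0.238) and that of Fdft1 -0.11 (adjusted p = 0.661).

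**Figure D4:**
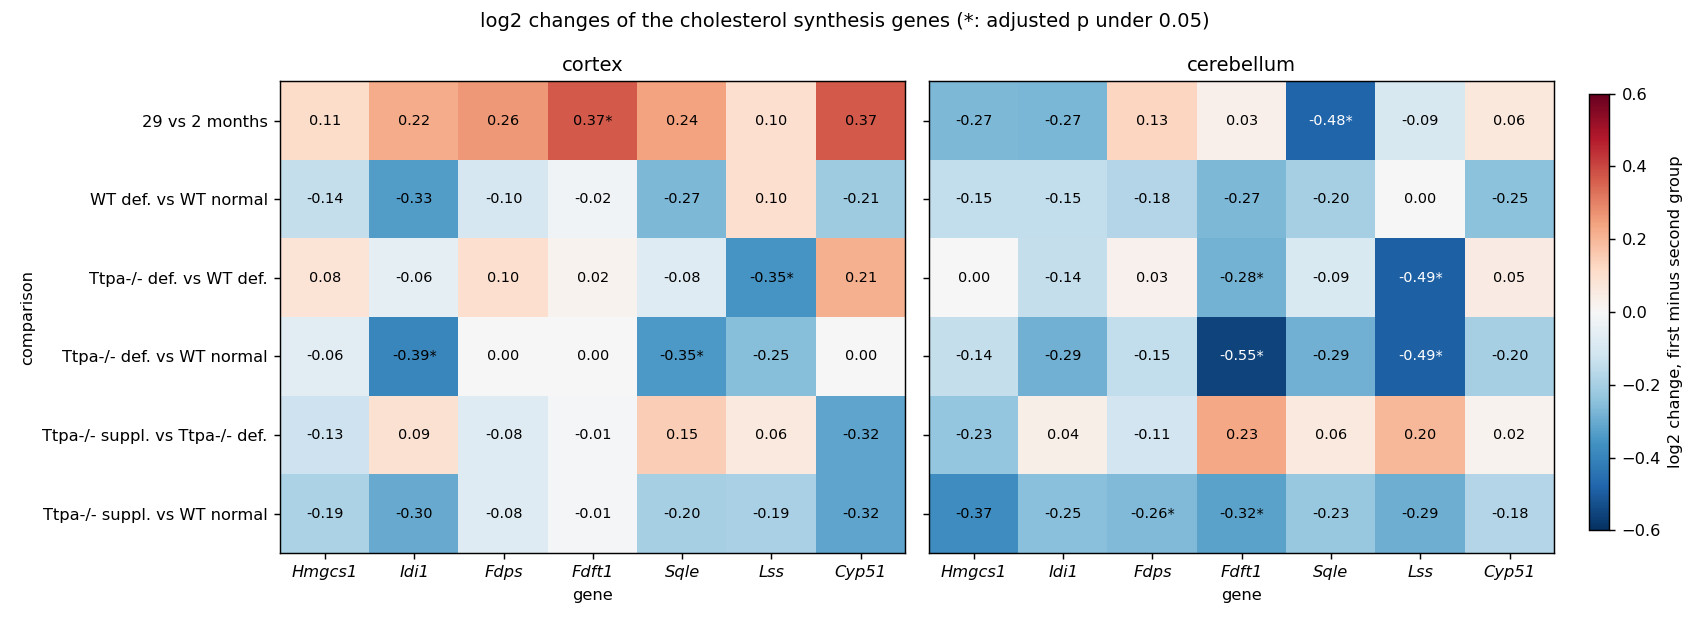
The log2 changes of the 7 genes (columns) in 6 comparisons of age, diet and genotype (rows, first group minus second) are printed and coloured for cortex (left) and cerebellum (right), with red above 0, blue below 0 and an asterisk where a change passed. The darkest cell is that of Fdft1 in deficient Ttpa-/- against wild-type cerebellum on the normal diet, at -0.55.

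The deficient diet alone was tested in wild-type mice. In cortex 0 of 7 genes passed with limma, where 0.339% of tested probes changed in either direction, and 2 had an unadjusted p under 0.05. These were Idi1, with levels of 2.48, 2.59 and 2.36 on the 3 arrays with a value and a change of -0.33 (adjusted p = 0.199), and Sqle, with levels of 3.73, 3.95, 4.03 and 3.93 and a change of -0.27 (adjusted p = 0.207). Both lay below all wild-type arrays on the normal diet. Cyp51 had a change of -0.21, Hmgcs1 of -0.14, Fdps of -0.10, Fdft1 of -0.02 and Lss of 0.10. With arrays weighted by quality, Idi1, Sqle and Cyp51 passed (adjusted p = 0.0452, 0.0346 and 0.0264). In cerebellum, within 1 slide, 0 of 7 passed, where 4.56% of tested probes changed, and 3 had an unadjusted p under 0.05. The share of all tested probes under that unadjusted threshold was not counted in either region, nor was the share whose arrays did not overlap. All 7 estimates in cerebellum were below 0, with a median of -0.18 against -0.01 over all tested probes. In cortex 6 were, with a median of -0.14 against 0.01. The 3 genes were Fdft1, Cyp51 and Fdps, which had a change of -0.18 (adjusted p = 0.238). Fdft1 had a change of -0.27 ± 0.08 (adjusted p = 0.0585), Cyp51 of -0.25 (adjusted p = 0.187) and Sqle of -0.20 (adjusted p = 0.269), each without overlap of the arrays, and Fdft1 passed with same-numbered samples as blocks (adjusted p = 0.0483), with another background correction (adjusted p = 0.0399) and with array weights (adjusted p = 0.025).

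The supplemented diet was given to Ttpa-/- mice only. Against Ttpa-/- mice on the deficient diet, 0 of 7 genes passed with limma in cortex, where 14.1% of tested probes changed, and 0 of 7 in cerebellum, where 0.762% did, with 1 unadjusted p under 0.05 in each. Both shares are of adjusted p, and none was counted at unadjusted p or for arrays without overlap. In cortex Cyp51 had levels of -1.08, -0.91, -1.005 and -0.89 on the supplemented and -0.77, -0.69, -0.66 and -0.51 on the deficient diet. The arrays did not overlap, and its change of -0.32 ± 0.11 missed the threshold (adjusted p = 0.0507). In cerebellum, within 1 slide, Fdft1 had levels of 1.04, 1.31, 1.14 and 1.22 on the supplemented diet and a change of 0.23 (95% interval 0.06 to 0.41, adjusted p = 0.227). Lss had a change of 0.20 (95% interval -0.04 to 0.44), with levels of -1.61, -1.67, -1.58 and -1.82, and Sqle of 0.06 (95% interval -0.15 to 0.27). Idi1 and Cyp51 had changes of 0.04 and 0.02, while the estimates of Hmgcs1 (-0.23) and Fdps (-0.11) were below 0.

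Supplemented Ttpa-/- mice were also set against wild-type mice on the normal diet, which are the same control arrays as above. In cortex 0 of 7 passed with limma, where 0.212% of tested probes changed, and 2 had an unadjusted p under 0.05, Idi1 (-0.30) and Cyp51 (-0.32). In cerebellum, where 7.04% of tested probes fell, Fdps and Fdft1 were down-regulated. Fdps had levels of 2.99, 3.14, 3.08 and 2.97 against 3.22 to 3.38 in wild type and fell by 0.26 ± 0.09 (adjusted p = 0.0375). Fdft1 fell by 0.32 ± 0.08 (adjusted p = 0.0104), also without overlap. The second Fdft1 probe gave 0.01, and the call of Fdft1 was lost with the mean of both probes (-0.16, adjusted p = 0.561), under median scaling (adjusted p = 0.201) and with the compared groups alone (adjusted p = 0.0771), while it held in all 8 fits without 1 array. Fdps passed in 2 of those fits and was lost without replicate 1, 3 or 4 of either group (adjusted p 0.0511 to 0.11). All 7 estimates were below 0 in both regions. Their median was -0.26 in cerebellum and -0.19 in cortex, against -0.01 and -0.002 over all tested probes. In cerebellum 6 of the 7 had an unadjusted p under 0.05. How many of all tested probes had an unadjusted p under 0.05 was not counted for these comparisons. Lss had a change of -0.29 (adjusted p = 0.0877). Set beside each other, the changes against the wild-type controls in cerebellum were -0.55 for Fdft1 on the deficient and -0.32 on the supplemented diet, and -0.49 and -0.29 for Lss. In the same order they were -0.29 and -0.25 for Idi1, -0.29 and -0.23 for Sqle and -0.20 and -0.18 for Cyp51. Hmgcs1 (-0.14 and -0.37) and Fdps (-0.15 and -0.26) went the other way, farther below wild type on the supplemented diet. None of the 7 genes passed between these diets. Against deficient wild-type cortex, within 1 slide, 0 of 7 genes passed in supplemented Ttpa-/- cortex with limma, where 0.0491% of tested probes changed, and 1, Lss, had an unadjusted p under 0.05 (-0.29, adjusted p = 0.431).

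Other enzymes of the pathway moved with the Ttpa-/- groups too. Against wild-type mice on the normal diet, 1 of 15 rose and 3 fell in deficient Ttpa-/- cortex, and 0 rose and 3 fell in cerebellum. Of all tested probes, 9.46% rose and 9.5% fell in cortex, and 6.8% rose and 6.39% fell in cerebellum. Msmo1 fell by 0.48 (adjusted p = 0.00747) in cortex and by 0.50 (adjusted p = 0.00755) in cerebellum, and Hsd17b7, a sterol ketone reductase, by 0.35 and 0.34. Mvk, mevalonate kinase, fell by 0.39 in cortex. Dhcr7, the last reductase before cholesterol, rose by 0.36 in cortex and fell by 0.47 in cerebellum, and the difference of 0.83 passed (adjusted p = 0.00309). In cortex Dhcr7 was also higher than in deficient wild-type mice, by 0.48, and lower with the supplemented than with the deficient diet, by 0.52 (adjusted p = 0.00389). Ebp, by 0.43, and Msmo1, by 0.38, fell in supplemented Ttpa-/- cerebellum. The 15 enzymes had a median change of -0.17 in deficient Ttpa-/- cortex and -0.20 in cerebellum.

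Of the 9 regulators, Stard4, which carries cholesterol between membranes, fell in deficient Ttpa-/- cortex by 0.57 (adjusted p = 0.00492), and 0 passed in cerebellum. Srebf2 had changes of 0.32 (adjusted p = 0.318) and -0.23 (adjusted p = 0.54). Of the 9 uptake genes, Lrp1, the large lipoprotein receptor, rose by 0.23 and Vldlr fell by 0.29 in cortex, and Lrp8, the other receptor of apolipoprotein E and reelin, rose by 0.35 and Lipa fell by 0.53 in cerebellum. Of the 9 genes of export and turnover, Abcg1 fell by 0.31 in cortex and 0 passed in cerebellum. Of 10 fatty acid synthesis genes 2 fell in cortex, Acss2 by 0.69 (adjusted p = 4.84e-05) and Acly, the citrate lyase, by 0.21, and 1 in cerebellum, Fads1, the delta-5 desaturase, by 0.48. Acss2 and Acly supply acetyl-CoA, the substrate of both lipid pathways. With the deficient diet in wild-type mice, 0 of the 15 enzymes passed in either region.

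Markers of myelin moved with these comparisons. Of 12 oligodendrocyte and myelin markers, 4 fell in deficient Ttpa-/- cortex, with a median of -0.56 and summed levels of 185 to 243 against 227 to 386 in wild type. In cerebellum 3 of 12 fell, with a median of -0.41 and summed levels of 209 to 287 against 287 to 333. In deficient wild-type cerebellum, where none of the 7 genes passed, 4 of 12 fell, with summed levels of 197 to 301, and in supplemented Ttpa-/- cortex 4 of 12 were higher than in the deficient group (276 to 361). Of 10 microglial markers 2 fell in deficient Ttpa-/- cortex and 5 in cerebellum, where the summed level was 95.4 to 118 against 113 to 129. Of 10 astrocyte markers 3 fell in cortex, with summed levels of 106 to 126 against 129 to 146, and 1 rose and 1 fell in cerebellum. Of 7 neuronal markers 2 fell in cortex (416 to 463 against 481 to 516) and 1 in cerebellum. Of all tested probes, 9.5% fell in deficient Ttpa-/- cortex, and 6.39% fell and 6.8% rose in cerebellum. In deficient wild-type cerebellum 3.39% fell, and in supplemented Ttpa-/- cortex 6.73% were higher than in the deficient group. The part of these cell types in the changes of the cholesterol genes was not tested.

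Most pairs of the 7 genes had a positive correlation between arrays of one group. After each group's mean was taken away, the 21 pairs of genes had a median Pearson r of 0.40 over the 20 cortical arrays, from -0.67 to 0.77, and 0.47 over the 20 cerebellar arrays, from -0.49 to 0.83. Of the 21 pairs, 15 were positive in cortex and 17 in cerebellum. Hmgcs1 and Sqle had r = 0.77 and 0.74, and Hmgcs1 and Idi1 r = 0.67 and 0.83. Lss ran against Hmgcs1, with r = -0.67 in cortex and -0.40 in cerebellum, and against Cyp51, with r = -0.44 and -0.49. With Fdft1, however, Lss had r = 0.46 in cortex and 0.04 in cerebellum. Fdft1 had r = -0.10 with Hmgcs1 and -0.06 with Sqle in cortex, and 0.18 and 0.46 in cerebellum. Without the 2 arrays farthest from the median of one gene of the pair, the median over pairs was 0.30 in cortex and 0.39 in cerebellum, and Lss had r = -0.45 and -0.20 with Hmgcs1 and -0.33 and -0.54 with Cyp51. Values of 1 array share its RNA, labelling and scaling, so these correlations are descriptions.

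The gene names whose pattern was most like the mean of the 7 genes were then sought among 13306 gene names (17556 probes). Each probe was centred on its mean in each region, so that the region difference did not enter, and likeness was the Pearson r over 40 arrays from 10 groups, with a median of 0.11 over all. The first 2 were synthesis enzymes, Sc4mol, the array's name for Msmo1 (r = 0.88, Spearman rho = 0.76), and Sc5d, the lathosterol desaturase (r = 0.83, rho = 0.77). The other gene names given among the first 10 were Napg (0.74), Kcnip3 (0.73), Prkrip1 (0.73), Ebp (0.72), Med10 (0.72), Ndufs1 (0.72) and Itga4 (0.71). Sc4mol and Sc5d kept r = 0.84 and 0.80 without the 2 arrays farthest from the median of the members' mean. Kcnip3 had r = 0.65 in cortex and 0.75 in cerebellum, whereas Napg, Prkrip1 and Ndufs1 had r of 0.17, 0.28 and 0.28 in cortex and 0.87, 0.85 and 0.86 in cerebellum. Nsdhl was at place 15 and Insig1 at 159.

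**Figure D5:**
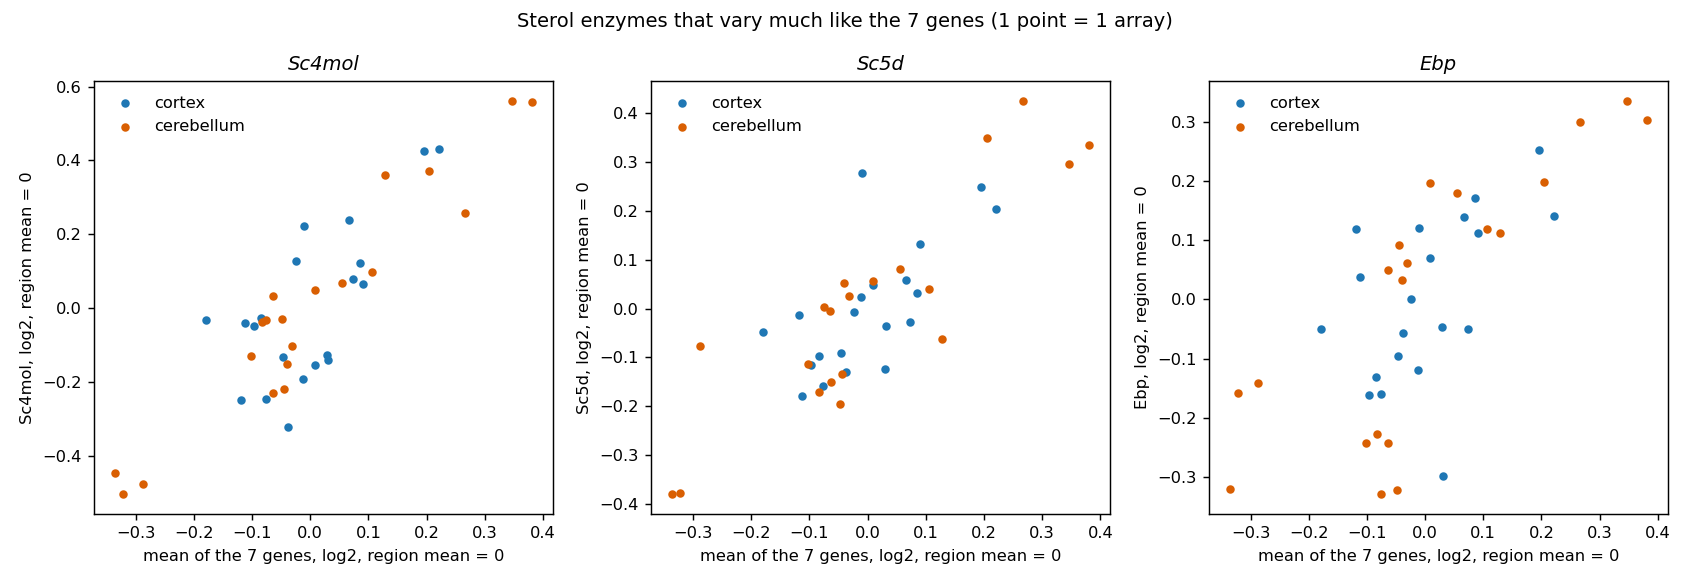
The log2 levels of Sc4mol, Sc5d and Ebp (vertical axes) are drawn against the mean of the 7 genes (horizontal axis), both centred on the mean of the region, with 1 point for each of 40 arrays, cortex in blue and cerebellum in orange. The points of Sc4mol lie closest to a line, with r = 0.88.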

How the data were processed

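Total RNA was labelled with Cy3 and hybridised to 40 1-colour Agilent arrays. The authors deposited scanner files, whose columns hold the processed intensity of each spot, background-subtracted by Feature Extraction (10.7.3.1 in the file headers, 10.1.1.1 in the submitters' processing notes), and other flag columns, deposited as 0 or 1. Control spots and spots flagged as outliers, 95 to 148 on an array, were left out, spots of a probe were averaged, and log2 intensity minus the log2 75th percentile of the array was the level. The authors also deposited a table of log2 values, used as an alternative. Set against the scanner files, it held the same levels centred on each probe's mean over all arrays (median absolute difference 0.00100 over 55681 probes, column medians -0.235 to 0.184).

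A coefficient per group was fitted to all 40 arrays with limma 3.58.1 in R 4.3.3 (lmFit and eBayes). A probe entered a test where all 4 arrays of 1 or both compared groups had it well above background, with Benjamini-Hochberg adjustment over all of them and 0.05 as the threshold. SE is limma's standard error and SD is over arrays. Overlap of arrays was read for the 7 genes only, and how many of all tested probes lacked it was not counted in any comparison. The probe with the highest mean stood for a gene. The fit was tested on simulated data. The 7 genes and the gene lists were chosen with earlier results of these data known, so no pattern is independent of that choice. The text names the 7 genes and, where at least 1 of them passed, up to 4 genes of each list with the largest changes past the threshold. Lbr, Ebp, Srebf2 and, for the supplemented diet, Dhcr7 were named in addition, after their values were seen. Likeness was ranked by r with the mean of the 7 genes, over the first 10 gene names. Some listed genes enter the counts and are not reported here by name.

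The labels do not say whether a replicate number shared by groups marks a mouse, litter or day. Same-numbered arrays correlated above 0.1 in all 4 pairs only for supplemented against deficient Ttpa-/- cortex (0.10 to 0.45), a hint from the data alone. The paper gives 4 mice per group for the arrays, so p-values measure the spread between mice within groups. That spread was estimated over all 10 groups together. The number of arrays limits the precision. Results were recomputed with another scaling (array median or quantile), normexp with an offset of 50, the authors' values, every probe tested, a mean over a gene's probes, array weights, fits of the compared groups alone, the replicate number as a block, the methods' t-test, a fold threshold of 1.5 and each array left out in turn. Promoters were matched by gene symbol in RefSeq (GRCm38.p6), for 4 of 7 genes. No annotation of mm9 was used here.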

Additional observations from a re-analysis of the deposited data

Results flagged for a closer look

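In 7 of 69 groups of 4 arrays, 1 array stood apart from the other arrays of its group by Dixon's test at its 95% critical value. Chance gives this in about 1 of 20 groups. In deficient Ttpa-/- cortex, replicate 4 had Idi1 at 2.66, above the other arrays at 2.33 to 2.35. In young cortex, replicate 4 had Fdft1 at 2.81, above the others at 2.63 to 2.65, replicate 1 had Sqle at 3.80, below the others at 3.97 to 4.00, and replicate 3 had Cyp51 at -0.92, above the others at -1.07 to -1.05. In supplemented Ttpa-/- cerebellum, replicate 1 had Sqle at 2.00, below the others at 2.42 to 2.44. In wild-type mice of 29 months fed the normal diet, Lss was at -0.72 in replicate 4 of cortex, above the others at -1.05 to -1.01, and at -1.21 in replicate 2 of cerebellum, above the others at -1.45 to -1.41. Each of these values was kept in the fits.

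Tests of a difference between the regions passed for 2 effects. The change of Sqle with age was higher in cortex than in cerebellum by 0.72 on the log2 scale, with the 4 aged arrays above the 4 young ones in cortex and below them in cerebellum. The change of Fdft1 in deficient Ttpa-/- mice against wild-type mice on the normal diet was higher in cortex by 0.55, with all 4 arrays below wild type in cerebellum and overlapping ones in cortex. For Fdft1 each side was a comparison between slides, and for Sqle the cerebellar side was, so that slide and region difference cannot be told apart.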

How the results depend on the processing

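No change that passed reversed its sign under the alternatives run. The counts of region differences stayed within 1.5 times at both ages under all alternatives, and so did those of Ttpa-/- mice on the supplemented diet against deficient wild-type cortex and of the supplemented against the deficient diet in Ttpa-/- cerebellum. The other counts below are of the 7 genes that passed under an alternative. With an added fold over 1.5, 0 passed in every other comparison that had a call, except 1 for the region difference in aging (Sqle). With median scaling, 0 passed for aging in cortex, both regional tests, deficient Ttpa-/- against normal wild type in cortex, against deficient wild type in both regions, and supplemented Ttpa-/- in cerebellum, and 1 for deficient Ttpa-/- against normal wild type in cerebellum. It moved the median of all probes by -0.11 for the supplemented diet in Ttpa-/- cortex, -0.18 for the deficient diet in wild-type cerebellum, 0.18 for deficient Ttpa-/- against deficient wild-type cerebellum and -0.13 for supplemented Ttpa-/- against deficient wild-type cortex. With the compared groups alone, 0 passed for aging in cortex, deficient Ttpa-/- against normal wild type in cortex, against deficient wild type in both regions and supplemented Ttpa-/- in cerebellum, and 1 for deficient Ttpa-/- against normal wild type in cerebellum. At an unadjusted p under 0.05 the methods' t-test gave 4 for aging in cortex, 2 and 4 for the deficient diet in wild-type cortex and cerebellum, 3 for deficient Ttpa-/- against deficient wild-type cortex, 4 against normal wild type in cerebellum, and 1, 2 and 4 for the supplemented diet against deficient Ttpa-/- cortex and against normal wild-type cortex and cerebellum. The share of all probes called at that unadjusted threshold was not counted, so these counts have no share to be set against. After Benjamini-Hochberg adjustment the t-test gave 1 for deficient Ttpa-/- against normal wild-type cerebellum and 0 for aging in cortex and the other comparisons of deficient Ttpa-/- mice. Array weights gave 3 for aging in cortex, 2 in cerebellum, 3 for their difference, 3 and 1 for the deficient diet in wild-type cortex and cerebellum, 1 for the supplemented diet in Ttpa-/- cortex and 5 for supplemented Ttpa-/- against wild-type cerebellum. The mean over probes gave 0 for aging in cortex and for the regional test of Ttpa-/-, and 1 for each comparison of Ttpa-/- with wild type in cerebellum. Normexp gave 1 for the supplemented diet in Ttpa-/- cortex, 1 for the deficient diet in wild-type cerebellum, 0 for deficient Ttpa-/- against deficient wild-type cortex and 1 for supplemented Ttpa-/- in cerebellum, no filter on dim probes gave 0 and 1 for the last pair, quantile normalization 2 for aging in cortex, and the authors' values 1 for deficient Ttpa-/- cortex. The causes were not tested. Slide as a block could not be fitted between slides, and within a slide it leaves the value as it is.

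With the replicate number as a block, 1 of 7 genes passed for the deficient diet in wild-type cerebellum (Fdft1, adjusted p = 0.0483) in place of 0, Sqle passed in deficient Ttpa-/- cerebellum, and no call was lost. Same-numbered arrays of other pairs of groups had correlations of -0.45 to 0.64. Leaving out 1 array gave counts of 1 to 2 for aging in each region and for its regional test, 0 to 2 for deficient Ttpa-/- against normal wild type in cortex and 2 to 4 in cerebellum, 0 to 1 and 1 to 2 against deficient wild type, and 1 to 2 for supplemented Ttpa-/- in cerebellum. Cyp51 passed for aging in cortex without replicate 3 or 4 of the aged group (adjusted p = 0.0317 and 0.0323), and Idi1 for aging in cerebellum and its regional test without young replicate 1 (adjusted p = 0.0385 and 0.0444). The other counts were the same in every fit. Dim signal limits the second Fdft1 reading.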

Other observations

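Markers of the brain's blood vessels were also measured. Of 8 endothelial markers, 1 fell with age in cortex, where 1.39% of tested probes fell, and 1 rose in cerebellum, where 6.93% rose. In deficient Ttpa-/- cortex 2 rose and 1 fell, where 9.46% of tested probes rose and 9.5% fell. The summed levels there were 28.1 to 32.9 against 28.4 to 32.1 in wild type. In deficient Ttpa-/- cerebellum 1 of 8 rose, where 6.8% of tested probes rose, with summed levels of 28.2 to 34.1 against 25.1 to 30.9.

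Among the other sterol genes, Ch25h was lower in deficient Ttpa-/- than in deficient wild-type mice, by 1.38 on the log2 scale in cortex (adjusted p = 0.0246) and by 1.48 in cerebellum (adjusted p = 0.0152). Srebf1 was higher in the same comparisons, by 0.36 (adjusted p = 0.0443) and 0.40 (adjusted p = 0.0253), and Mbtps2, a protease that releases SREBP, was lower by 0.31 in each region. Abca1 was higher by 0.35 in supplemented Ttpa-/- than in wild-type cerebellum on the normal diet (adjusted p = 0.0306).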
